A study of Mus musculus with 3 samples.

Results

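LIN28A and LIN28B, the 3 IGF2BP proteins, the HMGA pair HMGA1 and HMGA2, and TRIM71 are proteins of fetal and tumour cells that share a regulator, the let-7 microRNA family. Their 8 genes, Lin28a, Lin28b, Igf2bp1, Igf2bp2, Igf2bp3, Hmga1, Hmga2 and Trim71, were taken by gene name from the 22976 genes of a count table of NSC-34 cells. The line is a mouse hybrid of neuroblastoma and of embryonic spinal cord cells enriched in motor neurons. Messenger RNA was sequenced from 2 clones that had become resistant to PR20, a proline-arginine repeat peptide of the kind made from the expanded C9ORF72 repeat, and from 1 control of the same line. The clones are labelled with 10 µM PR20 for 3 weeks and the control with no treatment. All 3 libraries carry the genotype label WT, and all cells were grown on gelatin in serum-containing medium. Each clone is a single selected line and the control is a single library, so clonal origin, selection and exposure to the peptide cannot be told apart. The labels do not place the clones in separate cultures. The p-values rest on the spread between the 2 clone libraries, part of which may be technical, and cover no variation of the control.

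LIN28 proteins bind the precursors of let-7 and block their maturation. LIN28A recruits the terminal uridylyl transferases TUT4 (Zcchc11) and TUT7 (Zcchc6), and the exonuclease DIS3L2 degrades the tailed precursor. Mature let-7 in turn represses the messenger RNAs of LIN28A, LIN28B, HMGA2, the IGF2BP proteins and TRIM71, so that LIN28 and let-7 oppose each other. LIN28B is known as an oncogene in neuroblastoma.

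The let-7 sequences are shown because a single seed, bases 2 to 8 of the microRNA, is what the 8 messenger RNAs share. In RefSeq (GRCm38.p6), the 11 let-7 and miR-98 loci with an annotated 5p arm gave 9 mature names, and all 11 carried the seed GAGGUAG. The seed is in capitals in 3 of them, which differ only after it.
let-7a-5p: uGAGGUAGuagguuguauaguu
let-7g-5p: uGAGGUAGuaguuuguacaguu
miR-98-5p: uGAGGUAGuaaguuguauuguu
LIN28 proteins recognise the loop of the precursor, in which the motif GGAG is the known contact of the zinc knuckles. The sequence between the arms held GGAG, in capitals below, in 8 of these 11 hairpins, against 52 of 644 mouse hairpins with both arms annotated (8.07%, searched on the hairpin strand only).
let-7g loop: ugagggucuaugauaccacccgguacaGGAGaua
let-7a-1 loop: uuagggucacacccaccacugGGAGauaa
let-7b loop: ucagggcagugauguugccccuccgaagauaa
The let-7b loop has no GGAG.

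In the longest annotated 3′ UTR of each gene (Gencode M21, GRCm38), the full seed match followed by A, CTACCTCA, occurred in 7 of the 8 genes and 13 times in all. Hmga1 carried a single match to the seed without the A, CTACCTC. Among the 15536 genes of the table with an annotated 3′ UTR, 3.48% held the 8-base match, and 5.49% of those with a 3′ UTR of at least 1000 bases did. The 8 genes have a median 3′ UTR of 2894 bases and are textbook let-7 targets, so this share describes how they were chosen. A site of each gene is given with the match in capitals, on the gene's strand.
Lin28a, chr4:134005189-134005210, minus strand: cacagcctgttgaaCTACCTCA
Lin28b, chr10:45381022-45381043, minus strand: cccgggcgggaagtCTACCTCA
Trim71, chr9:114512472-114512493, minus strand: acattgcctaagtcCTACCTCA
Igf2bp1, chr11:95961778-95961799, minus strand: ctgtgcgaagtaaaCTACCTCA
Igf2bp2, chr16:22059473-22059494, minus strand: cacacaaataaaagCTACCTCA
Igf2bp3, chr6:49086787-49086808, minus strand: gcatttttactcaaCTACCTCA
Hmga2, chr10:120364224-120364245, minus strand: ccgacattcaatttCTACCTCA
Hmga1, chr17:27563278-27563299, plus strand: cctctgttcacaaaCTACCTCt
The number of 8-base matches was 4 in Trim71, 3 in Igf2bp1, 2 in Lin28a, and 1 each in Lin28b, Igf2bp2, Igf2bp3 and Hmga2. The second Trim71 site lies at chr9:114512376-114512397, close to the first.

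The clone libraries held 11389663 and 11307034 gene counts and the control 11700755, so that 3 reads corresponded to between 0.256 and 0.265 CPM (counts scaled to a fixed library total). Levels are given below as reads and as CPM scaled with TMM factors, with the clones also as mean ± SD (n = 2). Differences are log2 fold changes of the clones over the control with a standard error, from edgeR's quasi-likelihood test over the 13705 genes that passed its low-count filter, with Benjamini-Hochberg adjustment at 0.05. Intervals are exact 95% intervals of counting error only and hold no variation between cultures. PCR copies are counted as separate reads here, so the intervals may be too narrow. The 8 genes were selected by name with their fold changes in this same contrast already known, so those fold changes and adjusted p-values describe the genes and are not new evidence. The labelled identity of the line was checked on marker genes. Of the motor neuron and cholinergic markers, Chat had 0 and 0 reads in the clones and 7 in the control, Lhx3 had 0 and 0 reads in the clones and 1 in the control, and Mnx1 had 1 and 3 reads in the clones and 1 in the control, so these 3 defining markers were near 0 in all libraries. Others were detected: Isl1 had 23 and 17 reads in the clones and 72 in the control, and Ache, which supplies most of the list's summed level, had 231 and 209 reads in the clones and 554 in the control. Slc18a3, the vesicular acetylcholine transporter gene, had 3 and 1 reads in the clones and 113 in the control. Of all tested genes, 25.8% were called lower by edgeR. All 8 neuroblastoma and sympathetic markers were tested and fell, with summed levels of 851 and 767 CPM in the clones and 1852 CPM in the control. The motor neuron list summed to 22.9 and 20.6 CPM in the clones and 62.2 CPM in the control, with 3 of 3 tested markers lower. Fibroblast markers summed to 67.2 and 84.1 CPM in the clones and 73.6 CPM in the control, with 1 of 4 tested lower, astrocyte and oligodendrocyte markers to 6.32 and 6.28 CPM in the clones and 7.73 CPM in the control, and microglia and macrophage markers to 0.978 and 0.987 CPM in the clones and 0.665 CPM in the control. The tested motor neuron markers and the neuroblastoma markers fell, as did some of the genes described below. The part of these markers in those results was not tested. In bulk libraries, fewer cells of a type and less RNA per cell cannot be told apart.

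Lin28a, which encodes the cytoplasmic LIN28 protein, was nearly absent from both clones. It had 3 reads in clone 1 and 2 reads in clone 2, against 280 reads in the control, or 0.267 and 0.180 CPM (0.223 ± 0.0617) against 23.3 CPM. The clone values are at or below the level of 3 reads, and the counting intervals of clone 1 (0.0550 to 0.780 CPM) and clone 2 (0.0217 to 0.649 CPM) lie far below that of the control (20.6 to 26.2 CPM). This was a log2 fold change of -6.63 ± 0.31 (SE), at an adjusted p of 7.36e-11 by edgeR. By counting error, the clones together were 104-fold lower than the control (interval 44.1 to 323). Clone 1 alone was 87.2-fold lower (29.5 to 425). Clone 2 alone was 130-fold lower (35.5 to 1075). With 5 reads in both clones together, the size of the drop is known only within those limits. The gene (ENSMUSG00000050966.9) spans chr4:134003330-134018841 on the minus strand, and the median log2 fold change of tested genes on chromosome 4 was -0.03.

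Lin28b, whose protein acts largely in the nucleus and can hold back primary let-7 transcripts, was lower in the clones but remained well detected. It had 271 and 276 reads in the clones and 535 in the control, or 24.1 and 24.8 CPM (24.4 ± 0.475) against 44.5 CPM. The clone intervals, 21.3 to 27.2 and 21.9 to 27.9 CPM, do not reach that of the control, 40.8 to 48.4 CPM. This was a log2 fold change of -0.86 ± 0.10 (SE), at an adjusted p of 2.48e-06 by edgeR, and the clones were 1.82-fold lower (interval 1.61 to 2.05). The call was lost when a variation of 20% between libraries was preset for every gene (adjusted p = 0.13). The gene (ENSMUSG00000063804.8) spans chr10:45376620-45486395 on the minus strand.

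**Figure D1:**
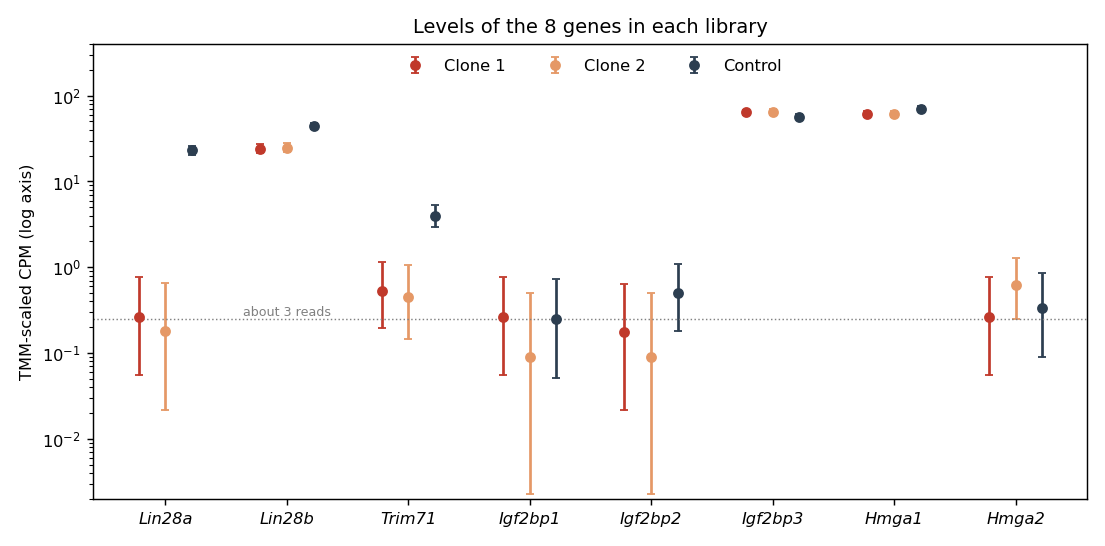
Level of each of the 8 genes in clone 1, clone 2 and the control, as TMM-scaled CPM on a log axis, with exact 95% counting intervals as bars and a dotted line at about 3 reads. Lin28a and Trim71 lie at 0.180 to 0.534 CPM in the clones and at 23.3 and 3.99 CPM in the control, while Igf2bp3 and Hmga1 stay between 57.1 and 70.1 CPM in all libraries.

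Per kilobase of exon, a scale on which the genes can be set side by side, the LIN28 pair changed its make-up. Lin28a gave 0.0668 and 0.0449 CPM per kb in the clones and 5.82 CPM per kb in the control. Lin28b gave 2.66 and 2.73 CPM per kb in the clones and 4.90 CPM per kb in the control. Lin28a thus made up 54.3% of the summed level in the control, and 2.45% and 1.62% of it in the clones. The lengths count every annotated exon, used or not, so which of the pair was more abundant in the control is not settled. The summed LIN28 level per kb was 2.73 and 2.78 in the clones and 10.7 in the control.

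**Figure D2:**
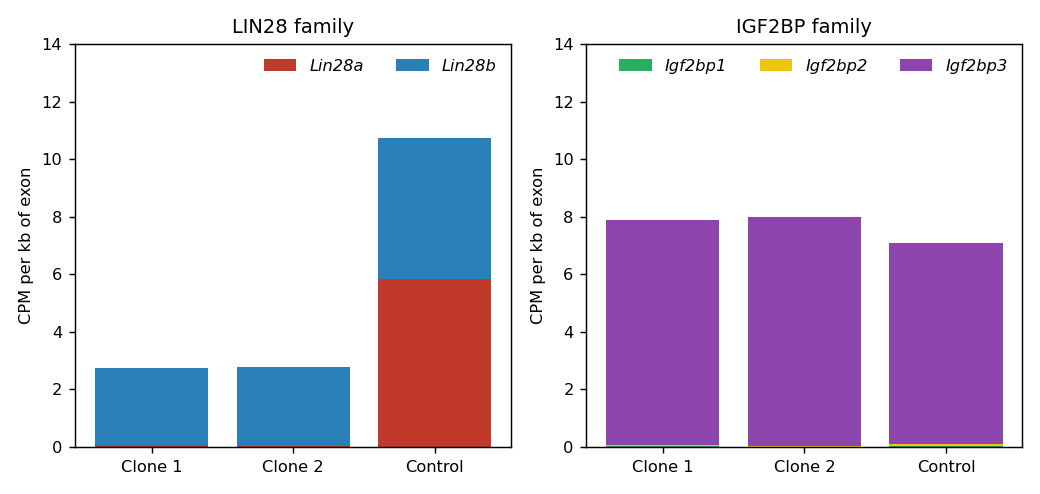
Summed level per length, in CPM per kb of exon, of the LIN28 pair (left) and the 3 IGF2BP genes (right) in clone 1, clone 2 and the control. The LIN28 bars are 2.73 and 2.78 high in the clones, nearly all Lin28b, and 10.7 high in the control, where the genes have similar shares, whereas Igf2bp3 fills at least 98.7% of every IGF2BP bar.

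Trim71, also known as Lin41, encodes an RNA-binding ubiquitin ligase of stem cells and early embryos that is repressed by let-7. It had 6 and 5 reads in the clones and 48 in the control, or 0.534 and 0.449 CPM (0.491 ± 0.0600) against 3.99 CPM. The clone intervals, 0.196 to 1.16 and 0.146 to 1.05 CPM, do not reach that of the control, 2.94 to 5.29 CPM. This was a log2 fold change of -2.99 ± 0.44 (SE), at an adjusted p of 3.26e-05 by edgeR, and by counting error the clones were 8.12-fold lower (interval 4.16 to 17.3). The gene (ENSMUSG00000079259.2) spans chr9:114507133-114564369 on the minus strand. At 0.427 CPM per kb in the control, Trim71 was the least abundant per length of the 4 genes that were lower.

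The IGF2BP proteins bind and stabilise messenger RNAs. Igf2bp3 carried nearly all of the family's level, and its clones and control differed little. It had 719 and 723 reads in the clones and 687 in the control, or 64.0 and 64.9 CPM (64.4 ± 0.671) against 57.1 CPM. The clone values lie slightly above the control, with a log2 fold change of 0.17 ± 0.08 (SE), at an adjusted p of 0.0693 by edgeR, which did not pass the threshold. The counting interval of the ratio ran from 1.03 to 1.24, which bounds the difference but not the spread between cultures. Igf2bp3 (chr6:49085223-49214957, minus strand) shares 18.7% of its exon bases with Malsu1 on the opposite strand, so its count may be affected by that overlap. Malsu1 itself had 300 and 304 reads in the clones and 330 in the control and was not called.

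Igf2bp1 and Igf2bp2 were at the floor in every library and did not pass the low-count filter. Igf2bp1 (chr11:95957163-96005940) had 3 and 1 reads in the clones and 3 in the control. Igf2bp2 (chr16:22059009-22163299) had 2 and 1 reads in the clones and 6 in the control, a ratio of 0.269 with a counting interval of 0.0435 to 1.26. A difference of either gene was not detectable at this depth. Igf2bp3 accounted for 99.3% and 99.7% of the family's level per kb in the clones and 98.7% in the control.

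HMGA proteins are small chromatin proteins that bind the minor groove of AT-rich DNA, and HMGA2 is the classical let-7 target of the pair. Hmga2 (chr10:120361275-120476469) was at the floor, with 3 and 7 reads in the clones and 4 in the control, a ratio of 1.34 with a counting interval of 0.388 to 5.87, and it did not pass the filter. Hmga1 (chr17:27556497-27563674, plus strand) was the most abundant of the 8 genes per length, at 28.6 and 28.6 CPM per kb in the clones and 33.0 CPM per kb in the control. It had 683 and 676 reads in the clones and 843 in the control, or 60.8 and 60.7 CPM (60.7 ± 0.0483) against 70.1 CPM. This was a log2 fold change of -0.21 ± 0.07 (SE), at an adjusted p of 0.0291 by edgeR, a ratio of 0.867 with a counting interval of 0.795 to 0.946. The call was absent with DESeq2 (adjusted p = 0.436) and with a preset variation of 20% (adjusted p = 0.885). Of the 50-base stretches of its transcripts, 55% also occur in the near-identical copy Hmga1b on chromosome 11, so reads may be split or lost between the genes. Hmga1b had 607 and 594 reads in the clones and 689 in the control and was not called (log2 fold change -0.09, edgeR adjusted p = 0.343).

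Of the 8 genes, 5 were tested, and 4 were called lower, 0 higher and 1 in neither direction. Igf2bp3 alone had an unadjusted p under 0.05 in the higher direction, and DESeq2 also called 0 higher. In the whole table the same fit called 50.1% of the genes tested, 24.3% higher and 25.8% lower, so a call as such sets none of these genes apart. DESeq2 called 3 of the 5 lower, without Hmga1, where it called 22.2% of all genes (11.5% higher and 10.6% lower). With a preset variation of 20% between libraries, or of 40%, Lin28a and Trim71 kept their calls, where 8.38% and 2.90% of all genes were called. With no low-count filter 0 of the 8 were called, with 6 at an unadjusted p under 0.05, and 0.0174% of all genes were. By size, 9.35% of tested genes were called and at least 2-fold lower, 3.98% at least 4-fold and 0.730% at least 64-fold. Counting from the lowest log2 fold change, Lin28a stood at position 85, Trim71 at 311 and Lin28b at 1643 of 13705 genes. The authors' deposited table gives a log2 fold change of -6.71 for Lin28a and -3.03 for Trim71. The authors' deposited table gives -0.87 for Lin28b, -0.22 for Hmga1 and 0.16 for Igf2bp3. The authors' deposited table called 10.0% of its genes higher and 9.77% lower. In the authors' deposited table Lin28a, Lin28b and Trim71 have an adjusted p under 0.05 and Hmga1 (0.460747745) and Igf2bp3 (0.634661966) do not.

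**Figure D3:**
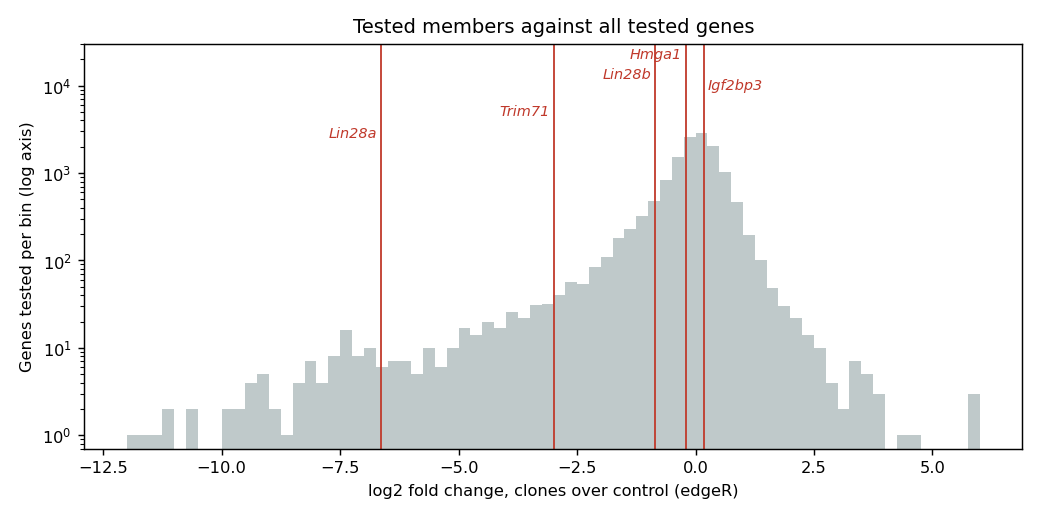
Histogram of the log2 fold change, clones over control, of the 13705 tested genes (number of genes per bin on a log axis), with lines at the 5 tested genes of the set. Lin28a at -6.63 and Trim71 at -2.99 lie in the thin lower tail, Lin28b at -0.86 on its shoulder, and Hmga1 at -0.21 and Igf2bp3 at 0.17 in the peak.

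Between the clones, the counting interval of the ratio included 1 for each of the 8 genes. The ratio of clone 2 to clone 1 was 0.673 for Lin28a (interval 0.0562 to 5.87), 1.03 for Lin28b (0.866 to 1.22) and 0.841 for Trim71 (0.203 to 3.31). For Igf2bp3 it was 1.01 (0.914 to 1.13) and for Hmga1 0.999 (0.897 to 1.11). The intervals of the well-covered genes are narrow, while those of Lin28a and Trim71 are wide enough to hold differences of several-fold.

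The genes most like each called gene were found by the distance between the log2 ratios of clone 1 and of clone 2 over the control, among 11715 genes averaging 1 CPM or more. Maneal, with 11 and 7 reads in the clones and 713 in the control, was nearest to Lin28a, followed by Rab9b, with 0 and 0 reads in the clones and 79 in the control. Of the genes compared, 14 lay within a distance of 0.5 of Lin28a. The place of Lin28a rests on 3 and 2 clone reads and on a prior count of 1, so this number is uncertain. The nearest to Trim71 were Dock10, with 48 and 40 reads in the clones and 335 in the control, and Nacad, with 43 and 37 reads in the clones and 317 in the control, and 51 genes lay within that distance. The changes of Lin28b and Hmga1 were common ones, with 1147 and 5352 genes within the same distance. Ush1c and Ank3 were nearest to Lin28b, and Poc1b and Hsp90aa1 to Hmga1. The likeness rests on 2 ratios that share the control.

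The genes around each locus were read from the same fit, which called 24.3% of all tested genes higher and 25.8% lower. Within 500 kb of Lin28a, 23 genes were tested, of which 7 rose and 6 fell, and their log2 fold changes ran from -1.85 to 0.61 around a median of 0.09. Its tested neighbours on either side were lower: Dhdds had 80.8 and 80.0 CPM in the clones and 127 CPM in the control (log2 fold change -0.66, edgeR adjusted p = 3.53e-07), and the weakly detected Crybg2 stood at -1.59 (adjusted p = 0.0133). Around Trim71, 2 of 14 tested genes rose and 5 fell, with a median of -0.07. Around Lin28b, 2 of 5 tested genes fell, with a median of -0.17 and a lowest value of -1.15, below that of Lin28b itself. Of its adjacent tested genes, Bves had 52.8 and 49.6 CPM in the clones and 72.3 CPM in the control (-0.50, edgeR adjusted p = 6.30e-05). Hace1, on the other side, was not called (-0.17, edgeR adjusted p = 0.0904). Beside Trim71, Glb1 was not called (-0.07, edgeR adjusted p = 0.492) and Cnot10 was higher (0.19, adjusted p = 0.033). Windows around Hmga2 and Igf2bp2 had 4 of 8 and 3 of 9 tested genes called lower, with medians of -0.48 and -0.46. Around Hmga1, 6 of 13 rose and 2 fell, with a median of 0.22. Around Igf2bp1, 2 of 12 rose and 2 fell (median 0.06), and around Igf2bp3, 2 of 13 rose and 3 fell (median -0.02).

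The machinery that makes and destroys let-7 was measured throughout. All 25 genes of this list were tested, and 6 rose, 6 fell and 13 were not called, a share of 48.0% against 50.1% in the table, with a median log2 fold change of 0.05. Of the genes of the LIN28A route, Zcchc11 rose by 0.26 on the log2 scale (edgeR adjusted p = 0.00608). Zcchc6 at 0.19, Dis3l2 at -0.06, and the processing enzymes Drosha at -0.13, Dgcr8 at 0.05 and Dicer1 at -0.10 did not pass the test (these, Zcchc11 and Ago2 were named after their values were seen). The lowest p-values belonged to 4 genes that rose. Tnrc6c, an Argonaute partner in silencing, averaged 287 ± 9.70 CPM in the clones and 179 CPM in the control (0.68, edgeR adjusted p = 7.57e-08). Xpo5, the exporter of precursor microRNAs, averaged 154 ± 4.06 CPM in the clones and 109 CPM in the control (0.51, adjusted p = 5.38e-06). Khsrp, whose protein promotes let-7 processing, averaged 178 ± 7.94 CPM in the clones and 138 CPM in the control (0.36, adjusted p = 1.31e-04). Adar, the RNA editing enzyme, averaged 97.8 ± 1.84 CPM in the clones and 74.5 CPM in the control (0.39, adjusted p = 1.81e-04). The Argonaute gene Ago2 fell by 0.27 (adjusted p = 8.59e-04), on chromosome 15, whose tested genes had a median of -0.28. DESeq2 called 5 of the 25, and with a preset variation of 20% edgeR called 0, with 0 at an unadjusted p under 0.05.

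Of 5 listed host transcripts of let-7, 3 were in the table and 2 were tested. Both were called, 1 lower and 1 higher, where 50.1% of all tested genes were called. The untested Mir99ahg had 0 and 1 reads in the clones and 1 in the control. Huwe1, whose intron holds let-7f-2 and miR-98, averaged 404 ± 7.42 CPM in the clones and 561 CPM in the control, a fall of 0.47 on the log2 scale (edgeR adjusted p = 8.92e-07). Wdr82, the host of let-7g, averaged 267 ± 0.289 CPM in the clones and 229 CPM in the control, a rise of 0.22 (adjusted p = 0.0024), which DESeq2 did not call (adjusted p = 0.0797). A host transcript is not a measure of the mature microRNA. Polyadenylated libraries do not hold mature let-7, and the 3 let-7 loci with a row in the table had 2 and 5 summed reads in the clones and 1 in the control.

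Known let-7 targets outside the set moved in both directions. Of 37 in the table, 34 were tested: 7 rose, 11 fell and 16 were not called (4 rose and 13 fell with library totals in place of TMM factors), a share of 52.9% against 50.1% over all genes, and the median log2 fold change was -0.10 against 0.00. Igf1r, the IGF1 receptor gene, averaged 215 ± 6.64 CPM in the clones and 82.5 CPM in the control (log2 fold change 1.38, edgeR adjusted p = 5.96e-11). Irs2, an adaptor of the insulin and IGF1 receptors, averaged 217 ± 1.69 CPM in the clones and 158 CPM in the control (0.46, adjusted p = 5.89e-06). The mitotic kinase gene Aurkb averaged 68.6 ± 3.73 CPM in the clones and 42.8 CPM in the control (0.68, adjusted p = 5.53e-06). The searched 3′ UTR of Aurkb held 0 matches to the let-7 seed. Arid3a, a transcription factor gene, averaged 11.8 ± 0.203 CPM in the clones and 32.5 CPM in the control (-1.46, adjusted p = 1.08e-07). Dividing the list by the 8-base match, the 17 genes with one had 4 higher and 5 lower (median -0.12), and the 17 without had 3 higher and 6 lower (median -0.07). DESeq2 called 7 of the 34, and with a preset variation of 20% edgeR called 3.

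On the list of messenger RNAs bound by IGF2BP proteins, 12 of 13 were tested, of which 2 rose, 4 fell and 6 were not called, with a median of -0.15. Thus 6 of 12 were called, at the 50.1% of all genes. With library totals 1 rose and 5 fell. The drug transporter gene Abcb1a had 48 and 38 reads in the clones and 198 in the control (log2 fold change -2.10, edgeR adjusted p = 3.61e-07), and its neighbour Abcb1b averaged 26.9 ± 0.647 CPM in the clones and 36.6 CPM in the control (-0.44, adjusted p = 0.00186). Actb, the beta-actin gene whose messenger RNA is carried by IGF2BP1, averaged 1400 ± 19.2 CPM in the clones and 1846 CPM in the control (-0.40, adjusted p = 3.32e-06). Ctnnb1, the beta-catenin gene, averaged 1003 ± 7.27 CPM in the clones and 804 CPM in the control (0.32, adjusted p = 4.55e-05). DESeq2 called 3 of the 12, and with a preset variation of 20% edgeR called 1.

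Messenger RNAs known to be repressed by TRIM71 were mostly higher. Of 7 tested, 6 rose, 0 fell (edgeR; 0 also at an unadjusted p under 0.05, and 0 with DESeq2) and 1 was not called. With library totals in place of TMM factors 6 rose and 1 fell, and limma-voom and a filter at a mean of 1 CPM each had 1 lower at an unadjusted p under 0.05. With TMM factors the share called higher was 85.7% against 24.3% over all genes, with a median log2 fold change of 0.36. Egr1, an immediate-early transcription factor gene, averaged 218 ± 4.95 CPM in the clones and 86.1 CPM in the control (1.34, edgeR adjusted p = 6.51e-11), on a chromosome, 18, whose tested genes had a median of 0.41. Rbl1, a gene of the retinoblastoma family, averaged 125 ± 2.73 CPM in the clones and 61.3 CPM in the control (1.03, adjusted p = 5.59e-09). The splicing regulator gene Mbnl1 averaged 178 ± 12.7 CPM in the clones and 120 CPM in the control (0.57, adjusted p = 4.26e-06). E2f7, a repressor of the cell cycle, averaged 63.6 ± 3.19 CPM in the clones and 50.4 CPM in the control (0.34, adjusted p = 0.00267). DESeq2 called 3 of the 7, and with a preset variation of 20% edgeR called 1. With 7 genes and no test of the list, nothing is claimed of the list as a whole.

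Of 21 other oncofetal and pluripotency genes in the table, 7 passed the filter, of which 3 fell, 0 rose (edgeR; 0 also at an unadjusted p under 0.05, and 0 with DESeq2) and 4 were not called, with a median of -0.39. The share called was 42.9%, against 50.1% over all genes, of which 25.8% were called lower. Sox4, a transcription factor gene of fetal tissues, averaged 40.5 ± 0.326 CPM in the clones and 94.4 CPM in the control (log2 fold change -1.22, edgeR adjusted p = 1.80e-09). Peg10, an imprinted gene of retroviral origin, averaged 137 ± 3.98 CPM in the clones and 196 CPM in the control (-0.52, adjusted p = 1.82e-06). Mycn, the neuroblastoma oncogene and also on the list of known let-7 targets, had 12 and 27 reads in the clones and 77 in the control (-1.87, adjusted p = 2.61e-04). The searched 3′ UTR of Mycn held 0 matches to the let-7 seed. H19, the imprinted long RNA, averaged 9.96 ± 0.504 CPM in the clones and 13.0 CPM in the control and did not pass the test (-0.39, adjusted p = 0.0683). Afp, with the list's highest value, had 27 and 16 reads in the clones and 12 in the control (0.94, edgeR adjusted p = 0.126, not called). Under the filter, the pluripotency genes Sox2, Pou5f1 and Nanog had only 2, 0 and 7 reads in the control itself. Afp and these genes were named after their values were seen. With library totals in place of TMM factors, or with a filter at a mean of 1 CPM, 5 genes were called, all lower.

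Among the protein families to which LIN28, TRIM71 and the HMGA proteins belong in name or domain, all 16 listed genes were tested, of which 7 rose, 5 fell and 4 were not called, with a median of 0.20. Thus 12 of 16 were called, against 50.1% of all genes. With library totals in place of TMM factors 3 rose and 5 fell, so the balance of directions depends on the scaling. Csdc2, a cold shock domain gene as LIN28 genes are, had 30 and 38 reads in the clones and 309 in the control (log2 fold change -3.07, edgeR adjusted p = 1.78e-09). Trim2, which shares the TRIM-NHL architecture with Trim71, averaged 53.1 ± 1.42 CPM in the clones and 86.1 CPM in the control (-0.70, adjusted p = 1.00e-06). Hmgn5, a nucleosome-binding protein gene, averaged 81.2 ± 3.37 CPM in the clones and 124 CPM in the control (-0.61, adjusted p = 1.48e-06), while Hmgb2, a chromatin protein gene of dividing cells, averaged 364 ± 26.4 CPM in the clones and 266 CPM in the control (0.46, adjusted p = 1.56e-05). DESeq2 called 6 of the 16, and with a preset variation of 20% edgeR called 1.

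**Figure D4:**
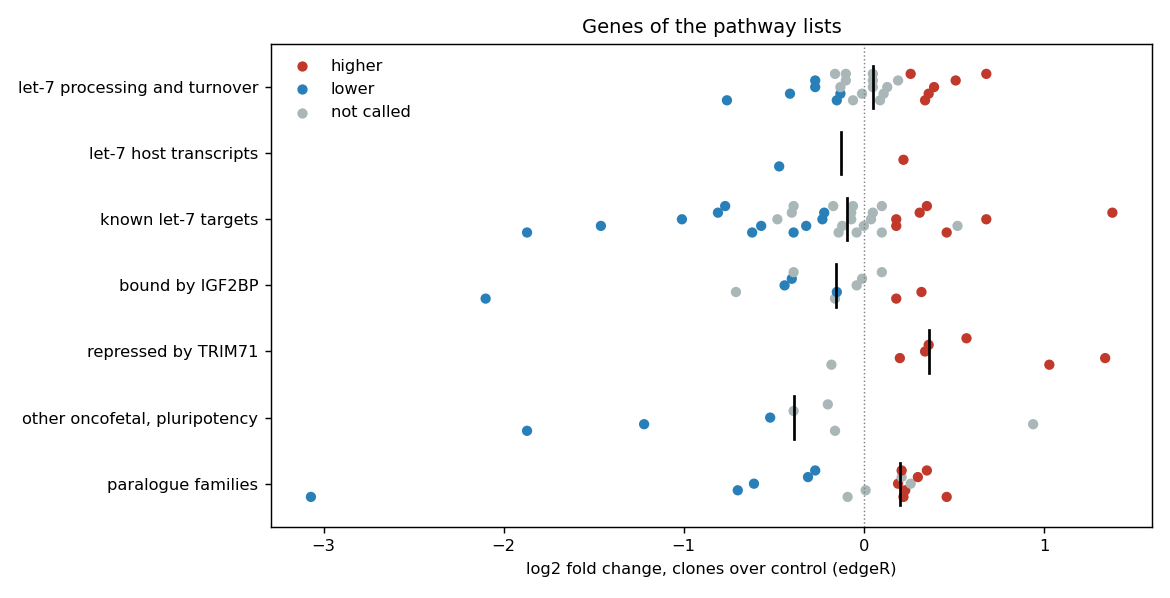
Log2 fold change, clones over control, of every tested gene on 7 lists, coloured by whether edgeR called it higher, lower or in neither direction, with a black bar at each list's median. The let-7 processing and target lists straddle 0 with medians of 0.05 and -0.10, while the list of messenger RNAs repressed by TRIM71 has a median of 0.36 and the other oncofetal and pluripotency genes one of -0.39.

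Beyond the listed targets, all tested genes with a 3′ UTR were divided by the let-7 match CTACCTCA, the 8 genes themselves left out. Of 439 genes with a match, 89 were called higher (20.3%) and 131 lower (29.8%), with a median log2 fold change of -0.03. Of 11704 without a match, 3088 were called higher (26.4%) and 3220 lower (27.5%), with a median of -0.01. The medians differed by -0.02. Genes with a match had longer 3′ UTRs, with a median of 2420 against 1145 bases. With at least 1000 bases required on both sides, a requirement added after the data were seen, 20.4% of 372 genes with a match were higher and 29.6% lower, against 26.0% and 30.2% of 6398 without, and both medians were -0.03. The difference between these shares was not tested. Genes with 2 or more matches had the same median as those with 1, -0.03 in 19 and 420 genes. The microRNAs were not measured, so these values describe messenger RNAs by their sequence only.

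**Figure D5:**
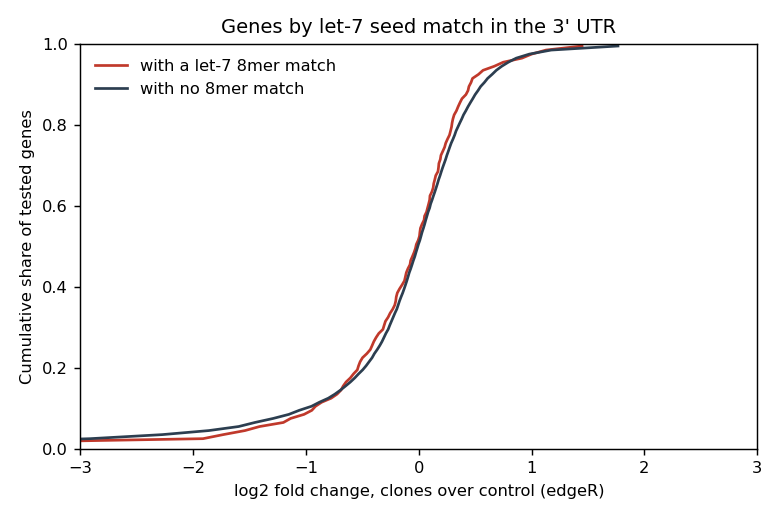
Cumulative share of tested genes against the log2 fold change, clones over control, for 439 genes with the 8-base let-7 match in the 3′ UTR and 11704 without. The curves nearly coincide, with medians of -0.03 and -0.01.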

How the data were processed

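Per the labels' protocols, the kit was a stranded one for mRNA. The deposited raw counts are whole reads per gene from STAR's gene counting on GRCm38/mm10 with Gencode M16 (Ensembl 91), per the file headers, without normalization. The deposited RPM values scale these counts to mapped reads, per the file headers, and matched the counts within 0.051 for all 22976 genes. The authors' deposited table from DESeq2 gives each gene's fold ratio, log2 fold change, p-value and adjusted p-value. Whether counting used strand is not given in the sources, so how antisense overlaps affect the counts is not known.

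The groups came from the labels' treatment field. GEO's treatment protocol carries the same text for all 3 samples. The fit was edgeR 4.0.16 (R 4.3.3), two-sided quasi-likelihood F test, TMM factors, filterByExpr, the legacy option off and Benjamini-Hochberg adjustment over 13705 genes; the script was checked on simulated data. Only the clones inform the spread, with 1 residual degree of freedom that edgeR moderates over all genes. A standard error is the size of the log2 fold change over the square root of F. Intervals at 95% are exact Poisson for a level and exact conditional binomial for a ratio. A log2 ratio of a single clone used a prior count of 1. Alternatives were DESeq2 1.42.0, RLE factors, library totals, no filter, a mean of at least 1 CPM, the legacy fit, limma-voom (limma 3.58.1), subtraction of chromosome medians, matches without the final A, and leaving out each clone. Preset variations of 20% and 40% (edgeR likelihood ratio test), a 3′ UTR of at least 1000 bases, and the searches for overlapping genes and shared 50-base stretches were chosen after seeing the data.

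Positions, exon lengths and 3′ UTRs came from Gencode M21 on GRCm38, which matched 22933 of the genes; microRNA sequences are RefSeq's. A gene's longest annotated 3′ UTR was searched on its own strand. Named genes are the 8 members and up to 4 tested genes per list with the lowest p. The 2 nearest genes of each called member are named too. Outside this rule, marker genes, Hmga1b, Malsu1, Mir99ahg and the tested genes adjacent to Lin28a, Lin28b and Trim71 are named. Other genes are said to be chosen after their values were seen. The members and lists were chosen with earlier results of these data known.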

Additional observations from a re-analysis of the deposited data

How the results depend on the processing

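The directions of all tested genes of the set held under every alternative. edgeR called 6868 genes, DESeq2 3037 and edgeR with a preset variation of 20% or 40% 1148 and 397. Calls higher made up 48.5% of the total with edgeR, 13.6% and 2.27% with those presets and 52.0% with DESeq2. With library totals in place of TMM factors, edgeR called 2635 higher and 3803 lower (40.9% higher), so the balance of directions depends on the scaling. With no filter edgeR called 4, all lower. Without the filter Lin28a (-6.62, adjusted p = 0.0719), Lin28b (-0.85), Trim71 (-2.98) and Hmga1 (-0.20) lost their calls, as did Lin28b (-0.86) and Hmga1 (-0.21) with both presets and Hmga1 (-0.21) with DESeq2. Less its chromosome median, Hmga1 was at -0.33. The cause of these losses was not tested.

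Calls on the lists for let-7 machinery, hosts and targets, IGF2BP-bound, TRIM71-repressed, oncofetal and paralogue genes (12, 2, 18, 6, 6, 3 and 12) were all 0 without the filter, where 10, 2, 13, 8, 6, 4 and 11 had an unadjusted p under 0.05. DESeq2 gave 5, 1, 7, 3, 3, 3 and 6, the 20% preset 0, 0, 3, 1, 1, 2 and 1, and the 40% preset 0 except for 1 paralogue gene. Of oncofetal genes, 5 were called with library totals or a mean CPM of at least 1. The difference of medians by let-7 match, -0.02, ran from -0.05 to 0.00 with either clone left out.

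Leaving out a clone moved Lin28a between -6.93 and -6.39, Lin28b between -0.88 and -0.84, Trim71 between -3.12 and -2.88 and Igf2bp3 between 0.16 and 0.18, and left Hmga1 at -0.21; no test remains, and counts of calls were not run. No paired analysis was possible because there is 1 control library. Depth limits Lin28a, Trim71 and the 3 genes under the filter.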

Other observations

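Among tested genes outside the set, Mcf2l, a guanine nucleotide exchange factor gene, had the most let-7 matches, with 7 copies of CTACCTCA in a 3′ UTR of 2728 bases. It had 2 and 2 reads in the clones and 34 in the control, a log2 fold change of -3.90 ± 0.56 (SE), at an adjusted p of 2.34e-05 by edgeR, and was chosen after its values were seen. Of the 19 tested genes with 2 or more matches, 2 rose, 6 fell (31.6%) and 11 were not called, where 25.8% of all tested genes and 27.5% of those without a match were called lower.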
